A study of Mus musculus with 10 samples.

Results

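The genes for 10 proteins that bind pre-mRNA and mRNA were followed through development of the mouse neocortex: the 4 Elavl genes, Ptbp1, Ptbp2, Nova1, Nova2, Celf1 and Celf2. They were taken from the table by gene name and are 10 of its 6147 genes. All 10 passed the filter on low values, which left 6048 genes in the tests. RNA was sequenced from neocortex of wild-type mice of the outbred CD1 strain at 5 points in development: E12.5, E14, E15.5 and E17, in days of embryonic life, and P0, the day of birth. Each stage had 2 libraries, 10 in all, described as biological duplicates. All groups share strain and genotype and carry no treatment, so the labels set them apart only by stage. Sex, litter and whether animals were pooled were not given in the sources used here, and the p-values measure only the spread between these libraries. Levels are TPM, read counts divided by gene length and scaled to a fixed total in each library. TPM keeps no read depth, and none was given.

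These proteins decide which exons are joined and how long messages last. Ptbp1, the polypyrimidine tract binding protein of progenitors and non-neural cells, represses neuronal exons, and its neuronal relative Ptbp2 partly takes over its sites in young neurons. The Elavl (Hu) proteins bind AU-rich and U-rich stretches, stabilise messages and alter splicing: Elavl1 (HuR) is made in nearly all cells, while Elavl2, Elavl3 and Elavl4 (HuB, HuC and HuD) are classical neuronal proteins. Nova1 and Nova2 are KH-domain splicing regulators of neurons, with Nova2 the main form in cortex, and Celf1 and Celf2 bind GU-rich elements and act on splicing, translation and decay. A gene-level TPM adds all transcripts of a gene, so splicing itself was not measured.

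Ptbp1 and Ptbp2 are linked by an exon that helps to show what the levels below can and cannot say. Ptbp1 protein causes skipping of a 34-base exon in its own message and in that of Ptbp2, and skipping shifts the reading frame and leads to nonsense-mediated decay. The 2 exons are printed from the GENCODE M21 transcripts (GRCm38), 5′ to 3′ on the gene's strand, with capitals marking the 26 of 34 bases (76.5%) that are identical in both.
Ptbp1, chr10:79862014-79862047, plus strand: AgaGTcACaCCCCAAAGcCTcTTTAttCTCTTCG
Ptbp2, chr3:119724612-119724645, minus strand: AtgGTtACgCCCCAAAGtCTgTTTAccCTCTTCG
In this annotation 4 Ptbp1 transcripts hold the exon and 2 skip it, both annotated as targets of nonsense-mediated decay. For Ptbp2, 3 transcripts hold it and 3 skip it, of which 2 are annotated as decay targets and 1 as a retained intron. The 2 forms are added together in the TPM of each gene.

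The promoters of the members with the largest fall and the largest rise, Ptbp1 and Elavl3, are shown as sequence only. They are the 250 bases before the RefSeq start (GRCm38.p6), with capitals marking E-boxes (CANNTG, the general motif of bHLH factors) and, in Elavl3, a TATAAA.
Ptbp1, chr10:79854182-79854431, plus strand: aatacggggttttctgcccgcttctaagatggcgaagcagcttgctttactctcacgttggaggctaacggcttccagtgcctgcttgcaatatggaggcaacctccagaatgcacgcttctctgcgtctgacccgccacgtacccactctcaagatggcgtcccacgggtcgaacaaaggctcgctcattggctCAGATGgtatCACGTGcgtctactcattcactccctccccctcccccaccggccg
Elavl3, chr9:22052024-22052273, minus strand: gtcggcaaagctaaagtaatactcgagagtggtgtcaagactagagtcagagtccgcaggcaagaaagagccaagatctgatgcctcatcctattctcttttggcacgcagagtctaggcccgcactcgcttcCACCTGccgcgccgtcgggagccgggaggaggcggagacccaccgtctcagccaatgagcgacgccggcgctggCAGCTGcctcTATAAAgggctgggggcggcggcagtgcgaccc
The Ptbp1 window held CAGATG 55 bases and CACGTG 45 bases before the start. That of Elavl3 held CACCTG 117 bases, CAGCTG 43 bases and TATAAA 33 bases before the start. Among 32851 promoter windows of this length, 66.2% held a CANNTG (the same letters on both strands), 13.0% a CAGCTG and 12.4% a TATAAA on either strand. All 10 members had a RefSeq promoter, and the matches describe letters, not binding.

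The tissue label was checked first. Neocortical identity genes were present in all libraries: 6 of 9 listed genes are in the table, with a summed level of 1002 to 1007 TPM at E12.5, 1464 to 1469 at E15.5 and 1010 to 1061 at P0. The E12.5 and E14 libraries also held RNA of neighbouring tissue and blood. The 5 meningeal markers summed to 106 to 173 TPM over the 4 libraries of E12.5 and E14. Over the 6 later ones they summed to 2.22 to 6.63. For 2 choroid plexus genes these sums were 303 to 1517 and 3.07 to 5.26. For 2 embryonic globin genes they were 1878 to 4490 and at most 9.12. Of 8 listed erythroid genes only those 2 were in the table, and of 6 vascular genes 0. Adult globin and vascular RNA were thus not read at any stage. The E17 libraries differed more from each other than any other pair: the SD over genes of the log2 difference between replicates was 0.285 at E17 and 0.0880 to 0.176 at the other stages. Some results are also given with a single library left out, of E17 or of another stage. The change of the median gene from E12.5 to P0 was -0.27 on the log2 scale in the deposited values, -0.05 after quantile normalization and -0.01 after median-of-ratios scaling, so falls of this size are shared by the table as a whole. Of the genes called in that comparison 34.7% were higher at P0 as deposited, 47.8% after quantile normalization and 50.1% after median-of-ratios scaling.

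All 10 members passed the limma F test over the 5 stages at a Benjamini-Hochberg adjusted p under 0.05, as did 82.9% of all genes tested. All 10 also passed between E12.5 and P0, beside 78.2% of all genes: 4 were higher at P0 (27.1% of all genes) and 6 were lower (51%). With so large a background these counts say little about the members, and the sizes and times of change tell them apart. Elavl3, Nova2, Celf2 and Nova1 rose, by 1.37, 1.04, 0.86 and 0.50 on the log2(TPM + 1) scale. Ptbp1, Ptbp2, Celf1, Elavl4, Elavl1 and Elavl2 fell, with changes of -2.73, -0.95, -0.70, -0.63, -0.62 and -0.57. The 4 rises were larger after median-of-ratios scaling (1.65, 1.32, 1.14 and 0.76) and the 6 falls smaller (-2.46, -0.68, -0.42, -0.36, -0.34 and -0.29), with no change of direction, and the Elavl2 call was lost there (limma with Benjamini-Hochberg adjustment, adjusted p = 0.0703).

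**Figure D1:**
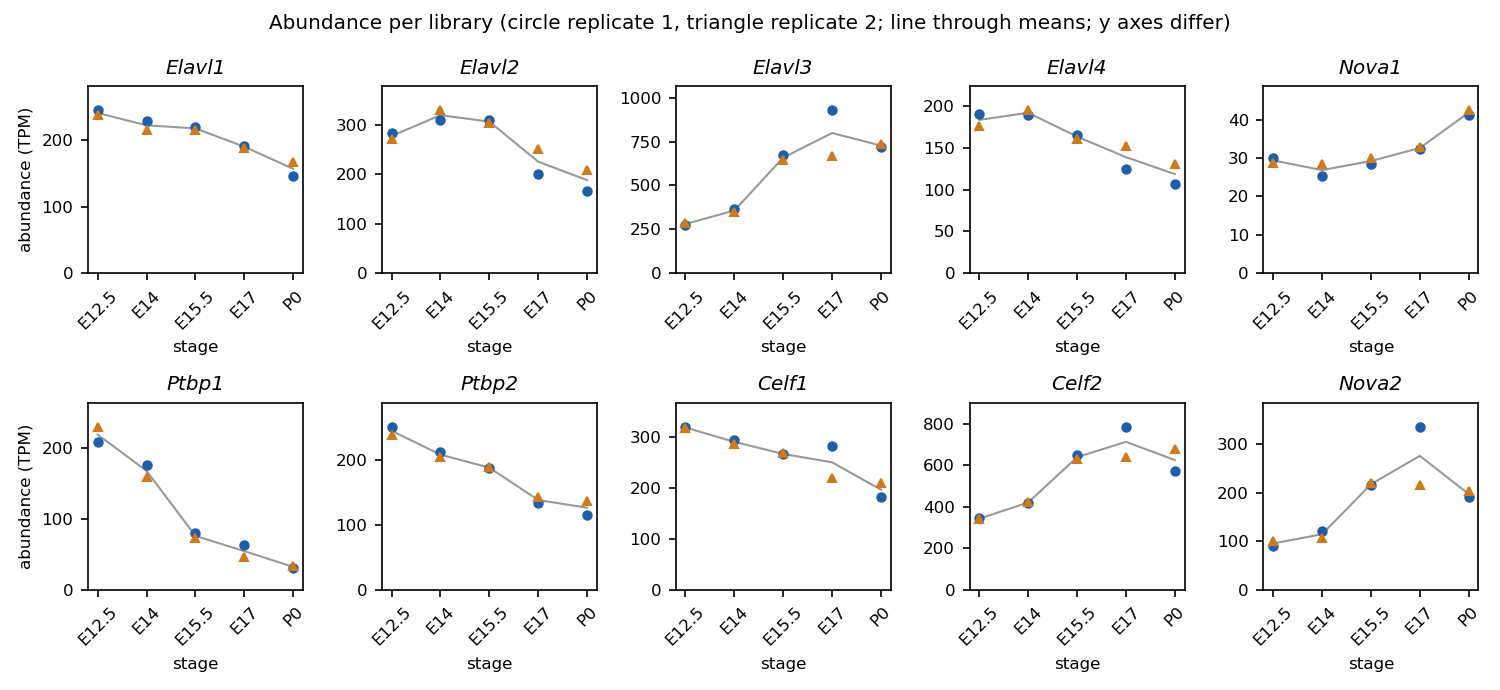
Level of each member (TPM, vertical axis) at the 5 stages (horizontal axis), with a point for each of the 2 libraries and a line through the stage means. Ptbp1 descends from 209 and 231 TPM at E12.5 to 30.9 and 33.6 at P0, while Elavl3 climbs from 277 and 283 to 719.9 and 734 TPM.

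Ptbp1 (chr10:79854427-79864771, plus strand) showed the largest change of the 10 members. Its level was 209 and 231 TPM at E12.5, 177 and 159.6 at E14, 79.7 and 72.6 at E15.5, 63.0 and 46.2 at E17, and 30.9 and 33.6 at P0. Both libraries of each stage lay below both of the stage before, and Ptbp1 was the only member with no overlap between its 5 stages. The share of all genes with such separation was not counted. The mean was 85.3% lower at P0 than at E12.5, a log2 change of -2.73 (SE 0.13) (limma with Benjamini-Hochberg adjustment, adjusted p = 3.34e-09). Only 179 of the 6048 genes tested, Ptbp1 itself included, had a fall as large or larger. From E14 to E15.5 it fell by 1.13 (SE 0.13, adjusted p = 2.44e-05 in limma), from E15.5 to E17 it fell by 0.49 (SE 0.13, adjusted p = 0.0194) and from E17 to P0 it fell by 0.73 (SE 0.13, adjusted p = 0.00137). The call from E15.5 to E17 was lost without E15.5 replicate 1 (limma adjusted p = 0.140) and without E15.5 replicate 2 (limma adjusted p = 0.0651). Without E17 replicate 1 this change was -0.71 and without E17 replicate 2 it was -0.27, in fits where E17 adds nothing to the spread. With only the 4 libraries of E15.5 and E17 the call was lost too. Its rank among the members went from the seventh highest at E12.5 to the lowest at P0.

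Ptbp2 (chr3:119718742-119784466, minus strand), the neuronal paralog, was also highest at the first stage. Its level was 251 and 239 TPM at E12.5, 213 and 204 at E14, 188 and 189 at E15.5, 134 and 143 at E17, and 116 and 137 at P0. The stages followed one another downward without overlap up to E17, and E17 overlapped with P0. It fell by 0.95 (SE 0.09) from E12.5 to P0 (limma with Benjamini-Hochberg adjustment, adjusted p = 1.03e-06). Of the steps between neighbouring stages only that from E15.5 to E17 passed, with a change of -0.44 (SE 0.09, limma adjusted p = 0.00462). This call was lost with only the 4 libraries of E15.5 and E17 (limma adjusted p = 0.0582).

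Because Ptbp2 fell less than Ptbp1, the make-up of the Ptbp family was different at the end. Ptbp2 TPM was 1.20 and 1.04 times that of Ptbp1 in the libraries of E12.5, 2.36 and 2.60 times at E15.5 and 3.75 and 4.08 times at P0. Ptbp3, the third paralog and a gene outside the 10 members, went from 51.5 to 18.1 TPM, a log2 change of -1.46 (limma with Benjamini-Hochberg adjustment, adjusted p = 1.18e-07). Summed over the 3 paralogs the level was 515 and 518 TPM at E12.5 and 164 and 189 TPM at P0. In that sum Ptbp1 made up 42.5% ± 2.84 (SD, n = 2) at E12.5, 26.3% ± 1.41 at E15.5 and 18.3% ± 0.73 at P0. Ptbp2 made up 47.5% ± 1.81 at E12.5, 65.2% ± 1.01 at E15.5 and 71.5% ± 1.39 at P0, and the share of Ptbp3 was 9.97% and 10.2% at these ends. The higher Ptbp2 share at P0 thus went with a lower Ptbp2 level.

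**Figure D2:**
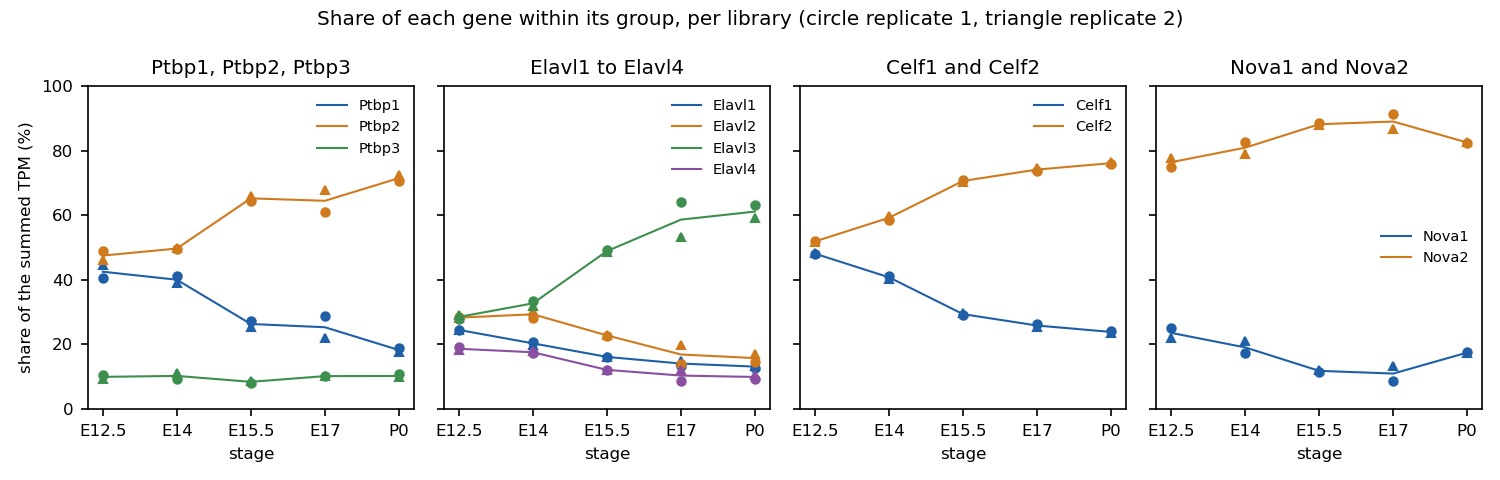
Share of each gene in the summed TPM of its group (percent, vertical axis) at the 5 stages, as the mean of 2 libraries. The groups are Ptbp1 to Ptbp3, Elavl1 to Elavl4, the pair Celf1 and Celf2, and the pair Nova1 and Nova2. Celf3 to Celf6 are not in the Celf sum. Between E12.5 and P0 the Ptbp2 share goes from 47.5% to 71.5% and the Elavl3 share from 28.5% to 61.1%. The Celf2 share of its pair goes from 51.9% to 76.1%.

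The 4 Elavl genes split by direction, with Elavl3 higher and the other 3 lower at P0 than at E12.5. Elavl3 (chr9:22015005-22052023, minus strand) was at 277 and 283 TPM at E12.5, 368 and 346 at E14, 673 and 644 at E15.5, 927 and 669.9 at E17, and 719.9 and 734 at P0. The 6 libraries from E15.5 on lay at 644 TPM or more and the 4 earlier ones at 368 or less, and E17 overlapped with both E15.5 and P0. The mean was 2.60 times as high at P0 as at E12.5, a rise of 1.37 (SE 0.12) on the log2 scale (limma with Benjamini-Hochberg adjustment, adjusted p = 8.79e-07). The change from E14 to E15.5 alone was 0.88 (SE 0.12, limma adjusted p = 0.000113), and from E15.5 to P0 the difference of 0.14 did not pass (limma adjusted p = 0.351).

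Elavl1 (chr8:4285382-4325413, minus strand), the form made in most cells, was at 244 and 237 TPM at E12.5, 229 and 215 at E14, 219 and 216 at E15.5, 192 and 188 at E17, and 146 and 167 at P0. Each stage mean was lower than the one before, and only E14 and E15.5 overlapped. It fell by 0.62 (SE 0.08) from E12.5 to P0 (limma with Benjamini-Hochberg adjustment, adjusted p = 2.06e-05). The change from E17 to P0 was -0.28 (SE 0.08, limma adjusted p = 0.0168), a call lost after median-of-ratios scaling (limma adjusted p = 0.128) and without P0 replicate 1 (limma adjusted p = 0.104).

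Elavl2 (chr4:91250763-91400785, minus strand) had its highest stage means at E14 and E15.5. Its change from E12.5 to E14, 0.20, did not pass (limma with Benjamini-Hochberg adjustment, adjusted p = 0.321). It was at 284 and 272 TPM at E12.5, 310.4 and 329.9 at E14, 309.8 and 305 at E15.5, 201 and 251 at E17, and 167 and 210.0 at P0. The libraries of E14 and E15.5 lay above those of E12.5, and those of E17 and P0 lay below all others and overlapped with each other. The log2 change from E15.5 to P0 was -0.71 (limma with Benjamini-Hochberg adjustment, adjusted p = 0.000472). The change from E15.5 to E17, -0.45 (SE 0.12, limma adjusted p = 0.0193), did not pass without either E15.5 library (limma adjusted p = 0.113 without replicate 1 and 0.0998 without replicate 2). Without E17 replicate 1 it was -0.29. With only the 4 libraries of E15.5 and E17 it did not pass.

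Elavl4 (chr4:110203722-110351909, minus strand) was at 191 and 176 TPM at E12.5, 189 and 195 at E14, 166 and 161 at E15.5, 125.2 and 152 at E17, and 107 and 130.3 at P0. The first and second stage overlapped, as did the last pair. It fell by 0.63 (SE 0.11) from E12.5 to P0 (limma with Benjamini-Hochberg adjustment, adjusted p = 0.000236), and no single step between neighbouring stages passed. Elavl2 and Elavl4 are known as neuronal genes, and in these libraries their levels did not go with the summed neuronal markers, which are given below.

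Within the Elavl family the share of Elavl3 in the summed TPM was 28.5% ± 1.01 (SD, n = 2) in the first stage, 32.7% ± 1.21 at E14, 48.9% ± 0.41 at E15.5 and 61.1% ± 2.85 at P0. At E17 it was 64.2% in replicate 1 and 53.1% in replicate 2. Elavl1 had 24.5% at E12.5 and 13.1% at P0, Elavl2 28.3% and 15.8%, and Elavl4 18.7% and 9.94%. The ratio of Elavl3 to Elavl1 was 1.13 and 1.20 in the E12.5 libraries and 4.93 and 4.39 in those of P0. That of Elavl4 to Elavl1 was 0.779 and 0.745 at E12.5 and 0.732 and 0.778 at P0, so these 2 genes kept overlapping ratios at the first and last stage.

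Nova2 (chr7:18925888-18965319, plus strand), the cortical form of the Nova splicing regulators, was at 90.3 and 101 TPM at E12.5, 122 and 107 at E14, 216 and 219 at E15.5, 336 and 216 at E17, and 191 and 204 at P0. It was lowest in the 4 libraries of the first 2 stages, and the E17 libraries differed from each other more than those of E15.5 and P0 did. The rise from E12.5 to P0 was 1.04 (SE 0.16) on the log2 scale (limma with Benjamini-Hochberg adjustment, adjusted p = 8.33e-05), and that from E14 to E15.5 alone was 0.92 (SE 0.16, limma adjusted p = 0.000526). From E17 to P0 it fell by 0.45 (SE 0.16, limma adjusted p = 0.0417), and without E17 replicate 1 the difference was -0.13 (limma adjusted p = 0.265), while without E17 replicate 2 it was -0.76. That call was lost under 13 of 20 alternative settings, and from E15.5 to P0 the difference of -0.14 did not pass (limma adjusted p = 0.481).

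Nova1 (chr12:46694517-46818929, minus strand), known for its part in brainstem and spinal cord, was the lowest member at every stage but P0. It was at 30.1 and 28.6 TPM at E12.5, 25.4 and 28.4 at E14, 28.4 and 30.1 at E15.5, 32.3 and 33.0 at E17, and 41.3 and 42.4 at P0. The libraries of P0 lay above all others and those of E17 above all earlier ones. It rose by 0.50 (SE 0.09) from E12.5 to P0 (limma with Benjamini-Hochberg adjustment, adjusted p = 0.000365) and by 0.35 (SE 0.09) from E17 to P0 (limma adjusted p = 0.0110). The call from E17 to P0 was lost with only the 4 libraries of those stages (limma adjusted p = 0.140). The only step up that passed lay at E14 to E15.5 for Nova2 and at E17 to P0 for Nova1, and the difference between the paralogs was not tested. The ratio of Nova2 to Nova1 was 2.996 and 3.51 at E12.5, 7.62 and 7.29 at E15.5, 10.4 and 6.57 at E17, and 4.64 and 4.80 at P0.

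Celf1 and Celf2 started nearly level and moved in opposite directions. Celf2 (chr2:6539694-7509563, minus strand), the more neuron-rich of the pair and the longest member gene at 969870 bases, was at 347 and 339 TPM at E12.5, 417 and 425 at E14, 649.8 and 630.1 at E15.5, 786 and 642 at E17, and 573 and 679 at P0. The 3 later stages overlapped and lay above the first 2. It rose by 0.86 (SE 0.11) from E12.5 to P0 (limma with Benjamini-Hochberg adjustment, adjusted p = 1.45e-05) and by 0.60 (SE 0.11) from E14 to E15.5 (limma adjusted p = 0.000635).

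Celf1 (chr2:90940382-91019497, plus strand), a widely made regulator of splicing and decay, was at 319 and 317 TPM at E12.5, 294 and 286 at E14, 265 and 267 at E15.5, 282 and 218 at E17, and 183 and 209.5 at P0. The P0 libraries were the lowest, and E15.5 lay between the 2 libraries of E17. It fell by 0.70 (SE 0.11) from E12.5 to P0 (limma with Benjamini-Hochberg adjustment, adjusted p = 0.000106). The change from E17 to P0 was -0.34 (SE 0.11, limma adjusted p = 0.0289), and without E17 replicate 1 the difference was -0.16 and did not pass (limma adjusted p = 0.142), while without E17 replicate 2 it was -0.52. Nor did it pass without P0 replicate 1 (limma adjusted p = 0.199) or after median-of-ratios scaling (limma adjusted p = 0.0656). Celf2 TPM was 1.09 and 1.07 times that of Celf1 at E12.5 and 3.14 and 3.24 times at P0, and the Celf2 share of the pair went from 51.9% ± 0.26 (SD, n = 2) to 76.1% ± 0.43.

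The steps between neighbouring stages were also read one by one. From E12.5 to E14 none of the 10 passed in limma, beside 8.73% of all genes (3.95% higher and 4.78% lower), although 4 had an unadjusted p under 0.05 (Ptbp1, Ptbp2, Elavl3 and Celf2), beside 24.6% of all genes. From E14 to E15.5, 4 passed (51.7% of all genes, 18.4% higher and 33.3% lower), the rises of Elavl3, Nova2 and Celf2 and the fall of Ptbp1. From E15.5 to E17, 3 passed (25% of all genes, 10.6% lower), the falls of Ptbp1, Ptbp2 and Elavl2. From E17 to P0, 5 passed (41.7% of all genes, 12.9% higher and 28.8% lower): Ptbp1, Elavl1, Celf1 and Nova2 were lower and Nova1 was higher. Single libraries moved some of these counts: 5 passed from E12.5 to E14 without either E17 library, 1 from E15.5 to E17 without either E15.5 library and 7 without E17 replicate 2, and 2 from E17 to P0 without P0 replicate 1. After median-of-ratios scaling 2 passed from E17 to P0, 1 in each direction. Of all genes called, the share that was higher at the later stage went, as deposited and after that scaling, from 45.3% to 58.8% for E12.5 to E14, from 35.6% to 50.3% for E14 to E15.5 and from 30.9% to 48.6% for E17 to P0. For E15.5 to E17 it was 57.5% and 57.2%.

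**Figure D3:**
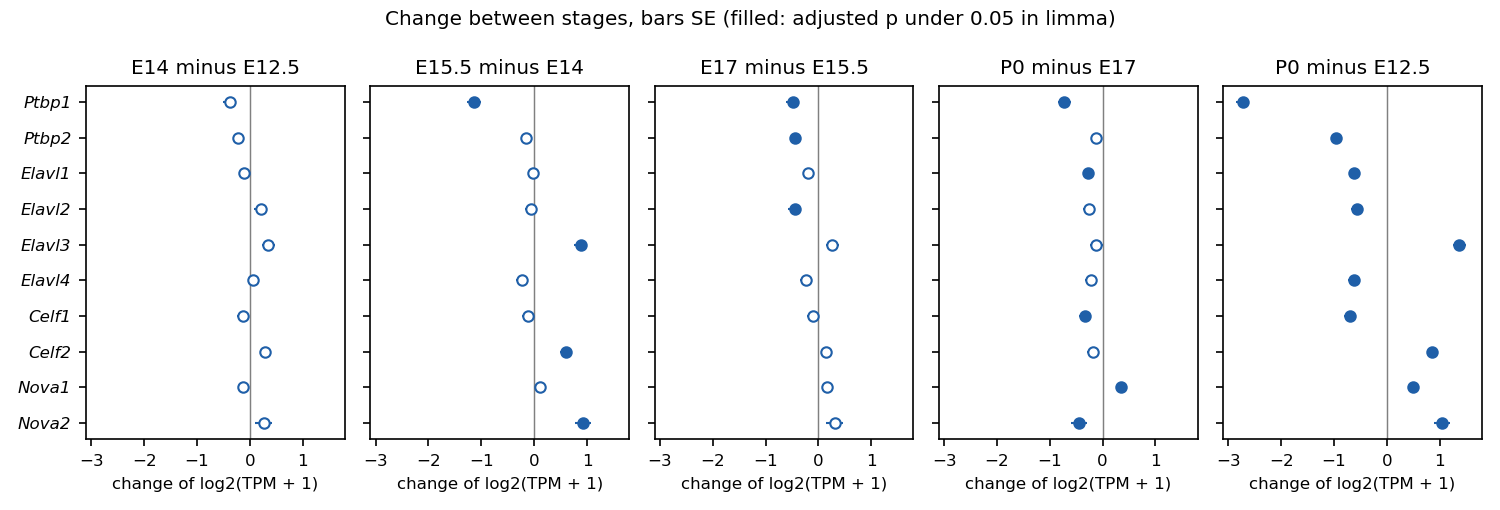
Change of each member in each comparison of stages (difference in log2(TPM + 1), horizontal axis, bars 1 SE from limma), with filled points for changes past an adjusted p of 0.05. Elavl3, Nova2 and Celf2 step up between E14 and E15.5, where Ptbp1 changes by -1.13.

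The step with the largest rises was also the one at which meningeal, choroid plexus and embryonic globin RNA dropped to low levels. Neuronal RNA increased at that step. In bulk tissue, fewer cells of a type and less RNA per cell cannot be told apart. The 14 neuronal markers summed to 2779 to 2819 TPM at E12.5, 3767 to 3931 at E14, 8508 to 8730 at E15.5, 9626 to 9643 at E17 and 11817 to 12867 at P0. The 13 proliferation genes in the table of 15 listed summed to 1534 to 1596, 1073 to 1123, 496 to 506, 293 to 335 and 175 to 179 TPM at the same stages. The 7 radial glia genes in the table of 9 listed summed to 2155 to 2156 TPM at E12.5. At E17 they summed to 1512 to 2015 and at P0 to 1642 to 1672. Fabp7 alone had a mean of 731 TPM at E12.5 and 1406 at P0. Between these stages 5 of the 7 were lower (51% of all genes) and 2 higher (27.1%). Their median log2 change was -2.78, beside -0.27 for all genes. The 2 intermediate progenitor genes of 4 listed summed to 261 to 269 TPM at E12.5 and 36.4 to 38.5 at P0. The part of these tissue and cell markers in the members' changes was not tested.

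A comparison of P0 with E15.5, added after the values were seen, leaves out the 2 stages with meningeal, choroid plexus and embryonic globin RNA. In it 7 of 10 members passed, beside 50.2% of all genes, with 1 higher (19.5% of all genes) and 6 lower (30.7%). Ptbp1 fell by 1.21 on the log2 scale (limma with Benjamini-Hochberg adjustment, adjusted p = 1.71e-05), Ptbp2 fell by 0.58 (limma adjusted p = 0.000236), Elavl2 fell by 0.71 and Elavl1 fell by 0.47 (limma adjusted p = 0.000501). Elavl4 fell by 0.47 (limma adjusted p = 0.00435) and Celf1 fell by 0.44 (limma adjusted p = 0.00588), and without P0 replicate 1 neither passed (0.0555 and 0.0692). Nova1 rose by 0.50 (limma adjusted p = 0.00083). Elavl3, Nova2 and Celf2, the members with the largest rises from E12.5, differed by 0.14, -0.14 and -0.04 and did not pass. This comparison does not hold the step from E14 to E15.5, at which those 3 rose. Over all genes called in it, 38.8% were higher at P0 as deposited and 51.9% after median-of-ratios scaling.

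The other regulators of splicing and message stability in the table gave a wider range than the members. Of 41 listed genes 29 were in the table and 28 were tested. Between E12.5 and P0, 9 were higher (27.1% of all genes), 18 were lower (51%) and 1 did not pass, Matr3 at -0.02 (limma with Benjamini-Hochberg adjustment, adjusted p = 0.92). After median-of-ratios scaling 9 were higher and 13 lower. Their median change was -0.49, beside -0.27 for all genes. The 4 neuronal Celf genes all rose: Celf4 from 37.8 to 207 TPM (log2 change 2.42), Celf6 by 2.29, Celf5 from 80.6 to 297 TPM (1.87) and Celf3 by 0.99. Rbfox1, a splicing regulator of maturing neurons, went from 24.6 to 194 TPM, the largest rise in the list at 2.92, and Rbfox2 rose by 0.76. Khdrbs3, of the Sam68 family of RNA-binding proteins, rose by 1.21.

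Among the falls were the progenitor regulators Msi2, from 303 to 78.9 TPM (log2 change -1.93), and Msi1 (-1.40), and the FUSE-binding proteins Fubp3 (-1.60) and Fubp1 (-1.57). Srrm4, which promotes neuronal microexons, fell by 0.54 (limma with Benjamini-Hochberg adjustment, adjusted p = 0.00444), a call lost after median-of-ratios scaling (limma adjusted p = 0.0511) and without P0 replicate 1 (limma adjusted p = 0.0558). Of the muscleblind genes, Mbnl2 fell by 0.63, and the change of Mbnl1, -0.28 (limma adjusted p = 0.0187), came to -0.01 after median-of-ratios scaling. Ptbp1, at -2.73, lay below every gene of this list, and Elavl3, at 1.37, lay below 4 of its rises.

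**Figure D4:**
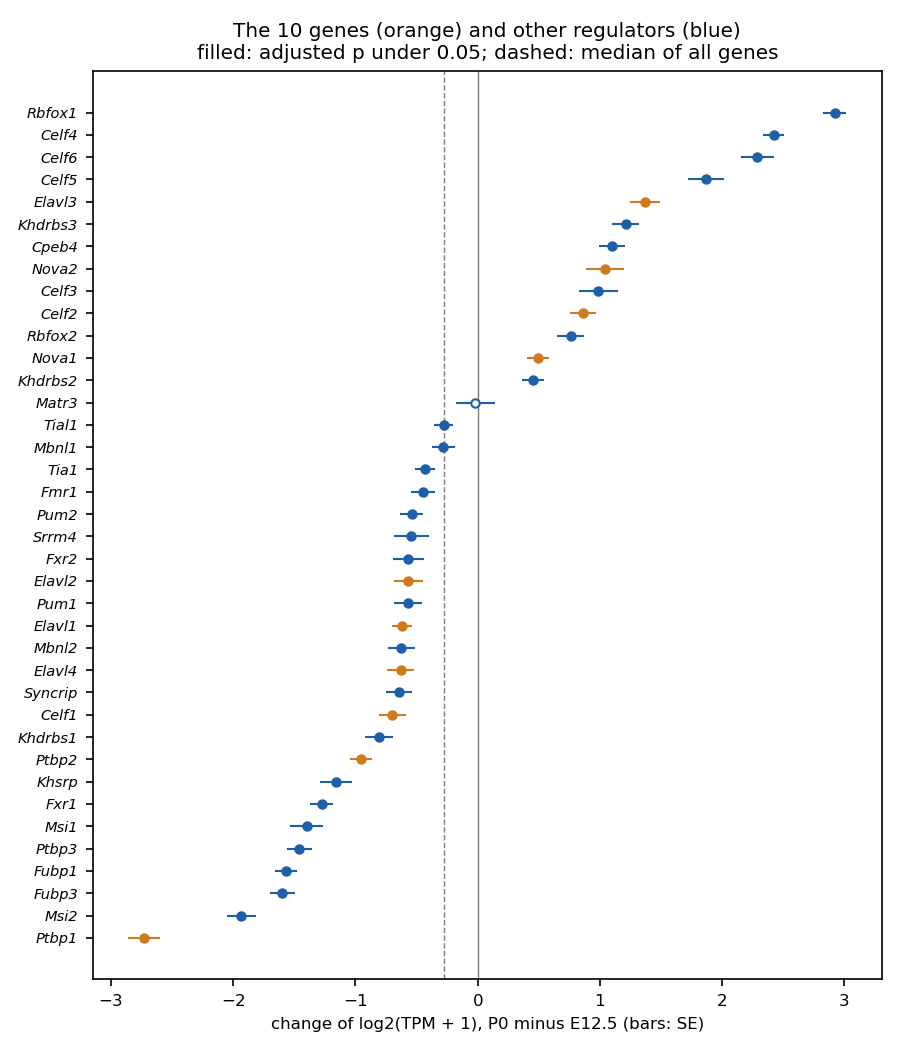
Change from E12.5 to P0 (difference in log2(TPM + 1), horizontal axis, bars 1 SE from limma) of the 10 members and the 28 other regulators tested. Rbfox1 lies at the top with 2.92 and Ptbp1 at the bottom with -2.73.

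Genes whose messages these proteins are known to act on were also read at the gene level, which does not show their exons. Of the Ptb list 7 of 8 were tested: Dlg4 (PSD-95), whose neuronal exon Ptbp1 and Ptbp2 repress so that the message decays, went from 67.1 to 229 TPM (log2 change 1.75), and Gabbr1 rose by 1.19. Flna and Actn1, both actin-binding proteins, fell (-1.47 and -1.27), and Src (-0.30) and Tpm1 (0.13) did not pass (limma with Benjamini-Hochberg adjustment, adjusted p = 0.0653 and 0.135). Of the Elavl list 5 of 9 were tested: the growth cone protein Gap43 rose by 3.04 and Mapt (tau) by 3.58, and the cyclins Ccna2 and Ccnd1 fell (-3.97 and -2.73). Of the Nova list 6 of 9 were tested: the reelin adaptor Dab1 rose by 0.91, gephyrin (Gphn) by 0.65 and Ap1s2 by 0.54. Agrn (-0.30) and Neo1 (0.21) did not pass (limma adjusted p = 0.144 and 0.124). The missing calls of Src, Tpm1, Agrn and Neo1 depended on the setting. After median-of-ratios scaling Tpm1 (0.41) and Neo1 (0.48) passed (limma adjusted p = 0.000835 and 0.000498). Src, Agrn and Neo1 passed with only the 4 libraries compared (limma adjusted p = 0.00241, 0.00474 and 0.0377). These 18 genes were read beside a background of 78.2% called, and Gap43 and Mapt are also in the neuronal marker list.

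Likeness of pattern was described by Pearson's r of log2(TPM + 1) over the 10 libraries, which share stages and scaling, so that high values are common. Among members, Elavl3, Celf2 and Nova2 were most alike (r = 0.984 for Elavl3 with Celf2, 0.976 for Nova2 with Celf2, 0.975 for Elavl3 with Nova2). The Ptbp pair had r = 0.941 and the Nova pair r = 0.428. Of 5420 genes compared, 958 (17.7%) had an r of at least 0.95 with Ptbp1 and 401 (7.4%) with Elavl3, but only 15 with Nova1 and 9 with Elavl2. The genes nearest to Ptbp1 were Gins3, Epb41l5 and Spata13 (r = 0.998 to 0.999), and those nearest to Ptbp2 were Hnrnpk, Gtpbp4 and Gtf2e1 (0.992 to 0.997).

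The nearest to Elavl3 were Map3k12, Tub and Rab2b (r = 0.996 to 0.998), to Elavl1 Cnot2, Cwc25 and Nup54 (0.990 to 0.996), to Elavl2 Fam98a, Mettl10 and Chmp5 (0.969 to 0.978) and to Elavl4 Trmt10c, Rps6 and Gtf2e2 (0.979 to 0.986). Nova2 was nearest to Magi2, Srgap1 and Nav2 (0.990 to 0.994) and Nova1 to Gpd2, Rab31 and Fam49b (0.966 to 0.975). Celf2 was nearest to Nav3, Gfod1 and Sestd1 (0.995 to 0.998) and Celf1 to Cpsf7, Sec24c and Rad54l2 (0.989 to 0.996).

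Several members share their locus with other genes in the GENCODE M21 annotation. Elavl3 overlaps the protein-coding gene model Gm49318 on the same strand, and on the opposite strand Ptbp1 overlaps Plppr3 and Elavl1 overlaps Ccl25. Non-coding genes or pseudogenes overlap Elavl2, Ptbp1, Ptbp2, Nova1, Nova2 and Celf2. Library preparation kept the strand, but whether counting used it, and how reads in shared exons were assigned, is not stated in any source read for this text, so the levels of all members with an overlap carry that limit.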

How the data were processed

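Libraries were made from neocortex RNA with a kit that selects polyadenylated RNA and keeps the strand, per the labels' protocols. The authors deposited TPM for 6147 genes in 10 libraries, per the file headers; the listed genes hold 68.9 to 71.7% of the TPM of each library. STAR, Subread and GRCm38.p5 are named in the submitters' processing notes; settings, gene lengths and the choice of genes were not stated there. Leaving out 99 genes that averaged less than 1 TPM, log2(TPM + 1) was used throughout. Stage means were fitted to all 10 libraries in limma (version 3.58.1, under R 4.3.3) with a variance trend, 5 residual degrees of freedom and Benjamini-Hochberg adjustment over 6048 genes, called under 0.05; it was tested on simulated data. The median SE of a difference was 0.11. Fold changes on this scale understate those of low genes. Shares and ratios were computed from TPM within a library and carry no test. The members and gene lists were chosen with earlier results of these data known. Named were the members, the 5 largest rises and falls among the other regulators and a fixed set of their family members, the tested genes of the lists acted on (a few are not reported here), and the 3 genes most like each member among those with a mean of at least 10 TPM. Positions come from GENCODE M21, promoters from RefSeq GRCm38.p6. Alternatives were pseudocounts of 0.1 and 10, filters, scalings, moderation, a replicate block, each library left out, and only the 4 libraries compared. Rbfox3, Mbnl3, Qk and Srrm3 were not analysed here.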

Additional observations from a re-analysis of the deposited data

How the results depend on the processing

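The 10 members' calls between E12.5 and P0 held under all alternatives except Elavl2 after median-of-ratios scaling. Over all comparisons, 29 called changes of members gave 580 values, of which 549 kept direction and call, 31 lost the call and 0 reversed; the cause was not tested. Fits on only the 4 libraries compared have fewer residual degrees of freedom and take the spread from the compared stages alone. The main fit shares the spread of a gene over all 5 stages. The SD of the replicate difference was 0.285 at E17 and 0.0880 to 0.176 at the other stages. Main-fit p-values for steps to or from E17 thus rest in part on the spread of quieter stages. Genes called from E12.5 to E14 were 528, but 893 after quantile normalization, 2479 with only the 4 libraries and 65 to 1769 with 1 library left out. From E15.5 to E17 they were 1514, but 120 with only the 4 libraries and 466 to 3164 with 1 left out. From E17 to P0 they were 2525, but 1126 with only the 4 libraries and 1641 to 3767 with 1 left out. Members called from E12.5 to E14 were 0, but 2 after median-of-ratios scaling, 7 with only the 4 libraries and 0 to 5 with 1 left out (5 without E17 replicate 1 or 2). From E14 to E15.5 they were 4, 7 with only the 4 libraries and 4 to 5 with 1 left out. From E15.5 to E17 they were 3, 0 with only the 4 libraries and 1 to 7 with 1 left out. From E17 to P0 they were 5, 2 after median-of-ratios scaling, 1 with only the 4 libraries and 2 to 7 with 1 left out. From E15.5 to P0 they were 7, and 5 to 8 over all alternatives. The Matr3 difference reversed to 0.041 after quantile normalization, 0.26 after median-of-ratios scaling, 0.0094 without E12.5 replicate 1 and 0.16 without P0 replicate 1 (range with 1 library left out -0.20 to 0.16). The log2 ratio change from E12.5 to P0 moved after quantile normalization from 1.81 to 1.68 for Ptbp2 to Ptbp1, from 0.54 to 0.37 for Nova2 to Nova1 and from 1.56 to 1.48 for Celf2 to Celf1. That of Elavl4 to Elavl1, -0.01, reversed to 0.014 after quantile normalization, 0.019 without E12.5 replicate 1 and 0.031 without P0 replicate 1 (range -0.058 to 0.031); that of Elavl2 to Elavl1, 0.05, came to -0.015 without P0 replicate 2 (range -0.015 to 0.12). Replicate numbers did not pair the libraries: deviations correlated at -0.375 to 0.107 over 10 pairs of stages, with 1 over 0.1. With the replicate number as a block, 462 genes were called from E12.5 to E14 and the members' counts were unchanged in all comparisons. TPM carries no read depth, so counting error could not be separated from other spread.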
